A study of Mus musculus with 8 samples.

Results

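Oxidative phosphorylation genes were described in alphaTC1.9 cells, a cultured line of mouse pancreatic alpha cells, in which mRNA was measured on Clariom S arrays. The set held the 91 probe sets, one for each of 91 genes, whose symbol on the array's platform table began with Nduf, Cox4 to Cox8, Atp5 or Uqcr, or was Sdha, Sdhb, Sdhc or Sdhd, out of 22142 probe sets that represent transcripts. The set was chosen by symbol, but with earlier results of these arrays known, so the group differences of its members are given as values without a test of the set. By complex, the members were 36 subunits and 8 assembly factors of complex I, 4 subunits of complex II, 6 of complex III, 17 of complex V and 20 genes counted with complex IV. These 20 include Cox7a2l, which was taken by its symbol and is not among the 19 subunits listed for complex IV. Both Ndufa4 and its relative Ndufa4l2 were counted with complex IV, to which their protein products are now assigned.

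The 4 IDE-KD arrays came from alphaTC1.9 cells in which a small interfering RNA targeted insulin-degrading enzyme, a metalloprotease known for breaking down insulin and glucagon, and the 4 control arrays from control alphaTC1.9 cells. Both groups grew in DMEM with 16 mM glucose, and the labels give no further treatment, no time after knockdown and no kind of control. A single tumour-derived line was used, so it models alpha cells in culture and not the islet. The labels call the replicates biological without saying whether they came from separate cultures, so the spread between arrays, against which every difference is set, may be in part technical. Levels are log2 values as deposited, where 1 unit is 2-fold, and a difference is IDE-KD minus control.

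Oxidative phosphorylation is the final stage of fuel oxidation in the inner mitochondrial membrane. Complexes I and II pass electrons from NADH and succinate to ubiquinone, complex III passes them on to cytochrome c, and complex IV to oxygen. Complexes I, III and IV pump protons, and complex V, the ATP synthase, uses the proton gradient to make ATP. In islet endocrine cells, mitochondrial ATP is a signal that couples nutrients to hormone release. Most subunits are encoded in the nucleus and a few catalytic ones in mitochondrial DNA. Of the 13 mitochondrially encoded subunits, 0 matched a named probe set, so the data concern the nuclear genes.

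The targeted gene was lower on every IDE-KD array. Ide read 7.91, 8.14, 7.92 and 8.05 on IDE-KD arrays 1, 2, 3 and 4, against 8.66, 8.62, 8.72 and 8.48 on control arrays 1, 2, 3 and 4. Its difference was -0.62 (SE 0.12, 95% confidence interval -0.87 to -0.36), and an exact two-sided permutation test over the arrays gave p = 0.0286, the smallest value that the 70 splits of the 8 arrays can give. In limma, adjusted over all 22142 probe sets, p was 1.00. Gcg, the glucagon gene that defines alpha cells, averaged 12.06 ± 0.10 in IDE-KD and 12.06 ± 0.07 in control cells (SD, n = 4 each). Of the 12 alpha cell markers listed, 8 were measured and 0 of these lay below the median intron control row of 4.16, which marks background; their summed linear level was 8578 to 9071 on IDE-KD and 8822 to 9355 on control arrays. Correlations between arrays of one group were 0.984 or more over the tested probe sets.

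No oxidative phosphorylation gene differed between IDE-KD and control cells past the threshold. Limma called 0 of 91 members at an adjusted p under 0.05, where it called 0 of 22142 probe sets (0.00%). At an unadjusted p under 0.05 it marked 0 of 91 members and 1017 of all probe sets (4.59%). The groups did not overlap for 0 of 91 members and for 620 of all probe sets (2.80%). These counts describe the members and are no independent test, since results of the same comparison were known when the set was chosen. Fitted differences were small: 42 members were higher and 49 lower in IDE-KD cells, with a median of -0.0096, beside 11528 higher and 10614 lower of all probe sets with a median of 0.0074. The members ranged from -0.44 for Cox7a1 to 0.33 for Cox8b, and 85 of 91 lay within 0.2 of 0. So did 17587 of all 22142 probe sets, and 7628 of the 8557 with a mean level over 6. The 95% confidence interval stayed inside a 2-fold change for 91 of 91 members and inside a 1.5-fold change for 81 of 91. Over all 22142 probe sets the counts were 22074 and 18503, and over the 8557 brighter ones 8548 and 8074. Small differences were thus not particular to the members. The standard error of a member's difference was between 0.11 and 0.27 with a median of 0.15.

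**Figure D1:**
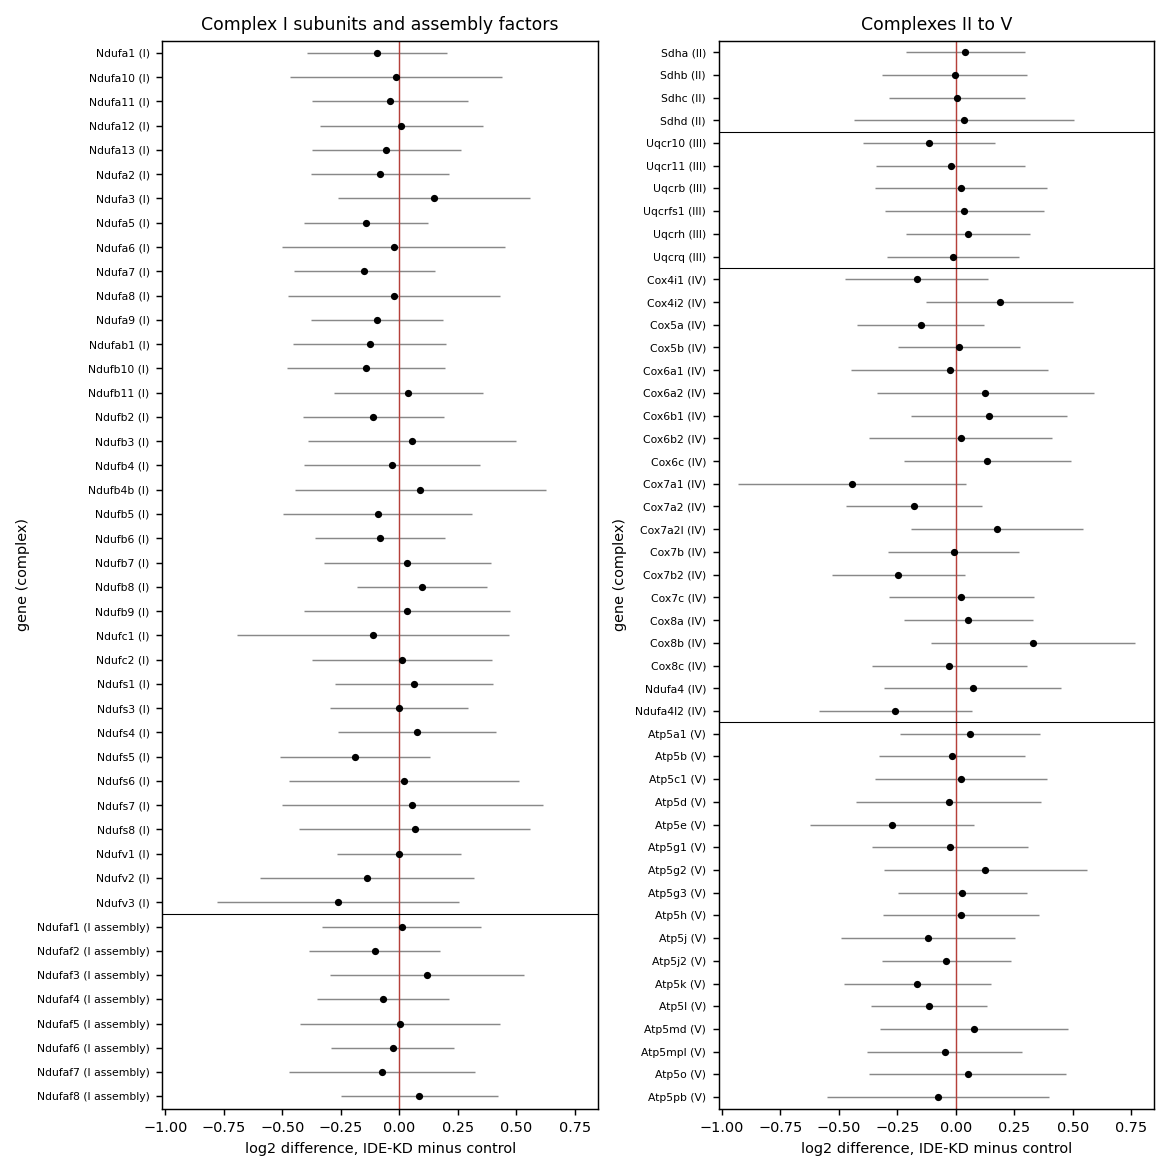
Each point is the fitted log2 difference of one member, IDE-KD minus control (horizontal axis), and each line its 95% confidence interval, with complex I subunits and assembly factors on the left and complexes II to V on the right. The intervals of all 91 members cross 0, and Cox7a1 at -0.44 and Cox8b at 0.33 are the outermost points.

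What set the arrays apart was a spread among the IDE-KD arrays that members of all 5 complexes shared. Array IDE-KD 2 held the highest of the 8 values for 52 of 91 members, and array IDE-KD 1 the lowest for 65 of 91. Both held for 45 members (49.5%), against 5.28% of all tested probe sets and 10.9% of those with a mean level over 6, a limit taken after seeing the data. In 81 of 91 members (89.0%) IDE-KD 2 read above IDE-KD 1, against 46.7% of all tested probe sets and 58.3% of those over 6. The median of IDE-KD 2 minus IDE-KD 1 was 0.56 over the members, -0.03 over all probe sets and 0.07 over those with a mean over 6. From low to high, the order IDE-KD 1, 3, 4, 2 was seen in 51 of 91 members (56.0%) and in 8.04% of all probe sets. These arrays and this order were taken up after seeing the members' own values, which favours the members in each of these comparisons. The shares and medians are thus a description and no test.

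The mean deviation of the members from their own 8-array mean came to -0.30, 0.26, -0.13 and 0.12 on IDE-KD arrays 1, 2, 3 and 4, against -0.03, 0.09, -0.06 and 0.04 on control arrays 1, 2, 3 and 4. The IDE-KD arrays thus lay on both sides of all control arrays, low on 1 and 3 and high on 2 and 4. The within-group SD had a median of 0.29 in IDE-KD and 0.14 in control cells over the members, and 0.21 and 0.17 over all tested probe sets. It was the larger in IDE-KD cells for 80 of 91 members (87.9%), and for 61.8% of all probe sets. The median difference of the members was -0.11 without IDE-KD 2 and 0.10 without IDE-KD 1, and -0.0051 without both, an alternative added after seeing the data.

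Array-wide measures moved with this pattern in part. The mean of the exon control rows was 6.95, 7.13, 6.92 and 7.09 on IDE-KD arrays 1, 2, 3 and 4, against 7.05, 7.10, 7.09 and 7.07 on control arrays 1, 2, 3 and 4. The SD over the tested probe sets was 2.16, 2.25, 2.13 and 2.23 on the IDE-KD arrays, against 2.20, 2.24, 2.22 and 2.22 on the control arrays. Both measures were lower on IDE-KD 1 and 3 than on IDE-KD 2 and 4, as the members were, but their lowest value was on IDE-KD 3, whereas the members were lowest on IDE-KD 1. All tested probe sets with a mean over 6 deviated by -0.06, 0.05, -0.10 and 0.04 on IDE-KD arrays 1, 2, 3 and 4. The summed linear level of 19 markers of other cell types ran the other way among the IDE-KD arrays. It was 447, 393, 465 and 363 on IDE-KD arrays 1, 2, 3 and 4, against 415, 328, 379 and 370 on control arrays 1, 2, 3 and 4. All tested probe sets with a mean of 6 or below ran the same way as these markers, at 0.05, -0.03, 0.08 and -0.02 on IDE-KD arrays 1, 2, 3 and 4. The part of these measures and markers in the spread of the members was not tested.

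**Figure D2:**
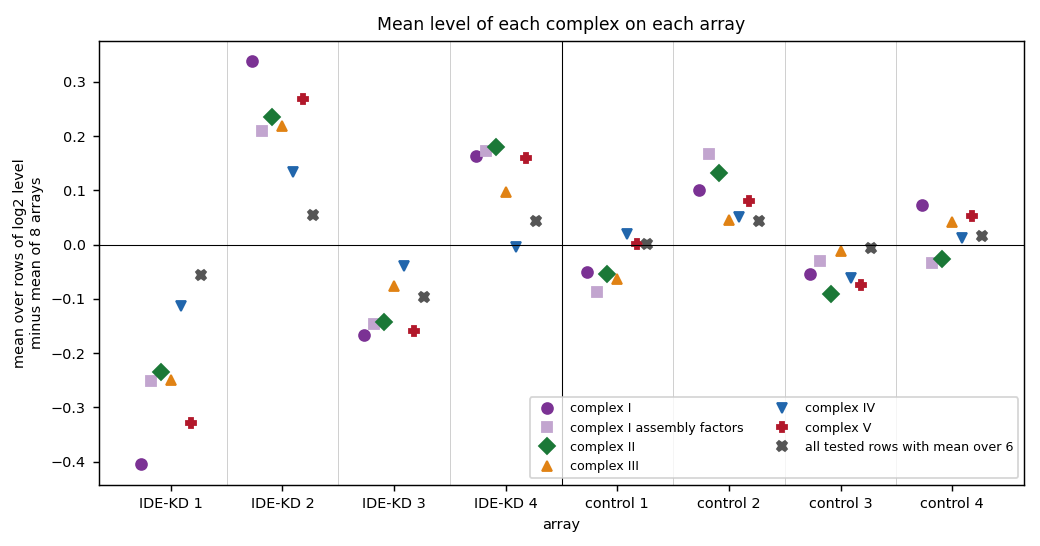
For each array (horizontal axis, IDE-KD arrays left of control arrays), each symbol is the mean over the rows of one complex of the log2 level minus that row's mean over the 8 arrays, with all tested probe sets of mean level over 6 as grey crosses. Complex I runs from -0.40 on IDE-KD 1 to 0.34 on IDE-KD 2, while its control arrays lie between -0.05 and 0.10.

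**Figure D3:**
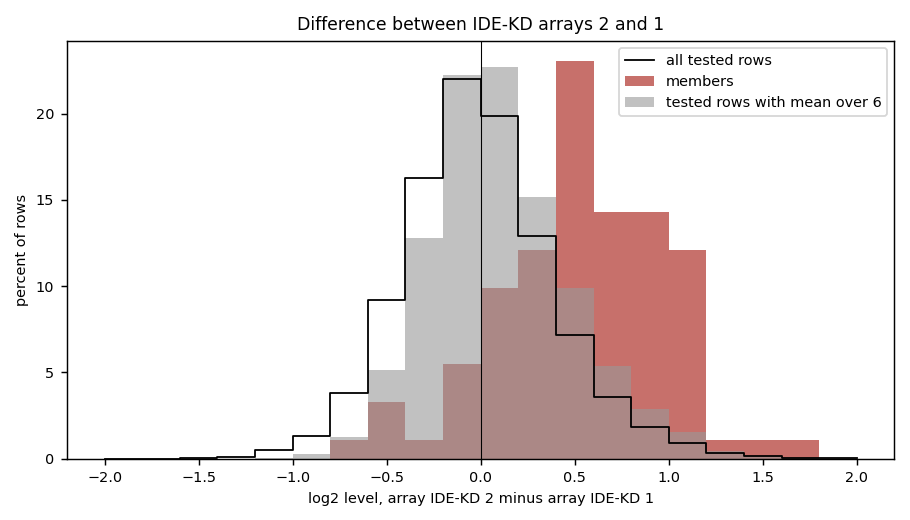
Percent of rows (vertical axis) by the log2 level on array IDE-KD 2 minus that on array IDE-KD 1 (horizontal axis), for the 91 members in red, tested probe sets with a mean over 6 in grey and all tested probe sets as a line. The members lie to the right, with a median of 0.56 against 0.07 for the grey rows.

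Complex I, the NADH dehydrogenase and the largest complex of the chain, showed the widest spread. Its 36 subunits had 14 higher and 22 lower differences with a median of -0.02, and their mean deviation was -0.40, 0.34, -0.17 and 0.16 on IDE-KD arrays 1, 2, 3 and 4, against -0.05, 0.10, -0.05 and 0.07 on control arrays 1, 2, 3 and 4. IDE-KD 1 held the lowest value of 31 of 36 subunits and IDE-KD 2 the highest of 23. In 35 of 36 IDE-KD 2 was above IDE-KD 1, with Ndufb10 the exception, at 7.42 on both arrays. The median difference of the complex was -0.15 without IDE-KD 2 and 0.11 without IDE-KD 1.

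The core subunits carry the flavin and the iron-sulfur clusters along which electrons travel from NADH to ubiquinone, and 6 of them are described here. All 6 were lowest on IDE-KD 1, and 5 were highest on IDE-KD 2. Ndufs7, which holds the cluster next to the ubiquinone site, read 7.27, 8.69, 7.64 and 8.35 on IDE-KD arrays 1, 2, 3 and 4, against 7.82, 8.10, 7.70 and 8.12 on control arrays 1, 2, 3 and 4. Its groups overlapped fully, since the control values all lay between IDE-KD 3 and IDE-KD 4, and the difference was 0.06 (SE 0.26, 95% confidence interval -0.50 to 0.61). Without IDE-KD 2 it was -0.18, and without IDE-KD 1 it was 0.30.

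Ndufs8, another iron-sulfur subunit near the quinone site, read 7.30, 8.42, 7.73 and 8.45 on the IDE-KD arrays, against 7.91, 8.11, 7.68 and 7.94 on the control arrays, with IDE-KD 1 below and IDE-KD 2 and 4 above every control. Its difference was 0.07 (SE 0.23). Ndufv2, the iron-sulfur subunit that sits beside the NADH site, read 7.88, 9.05, 8.05 and 8.49 on the IDE-KD arrays, against 8.63, 8.52, 8.48 and 8.39 on the control arrays. Here IDE-KD 1 and 3 lay below every control, IDE-KD 4 among them and IDE-KD 2 above them. The difference of -0.14 (SE 0.21) was -0.37 without IDE-KD 2 and 0.03 without IDE-KD 1, so a single array set its sign.

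Ndufs1, which carries iron-sulfur clusters of the NADH-oxidising arm, read 7.91, 8.67, 8.19 and 8.32 on the IDE-KD arrays, against 8.36, 8.12, 8.16 and 8.19 on the control arrays, with a difference of 0.06 (SE 0.16). Ndufs3, a core subunit without a cofactor, read 8.44, 8.95, 8.55 and 8.80 on the IDE-KD arrays, against 8.63, 8.81, 8.59 and 8.70 on the control arrays. In both genes the controls fell inside the IDE-KD range, and the difference of Ndufs3 was -0.00061 (SE 0.14). Ndufv1, which binds the flavin and NADH, had the narrowest range of the core, with 9.26, 9.61, 9.53 and 9.59 on the IDE-KD arrays, against 9.38, 9.55, 9.49 and 9.58 on the control arrays and a difference of -0.0021 (SE 0.12).

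The 30 accessory subunits surround the core and are needed for its assembly and stability. They had 11 higher and 19 lower differences, from -0.26 for Ndufv3 to 0.15 for Ndufa3. Ndufv3, a small subunit attached to the NADH-binding arm, read 5.56, 6.37, 5.70 and 6.61 on the IDE-KD arrays, against 5.80, 6.53, 6.40 and 6.57 on the control arrays. Control 1 lay with IDE-KD 1 and 3, far below the other controls, and the difference of -0.26 (SE 0.24, 95% confidence interval -0.78 to 0.25) was -0.10 without IDE-KD 1 and -0.45 without IDE-KD 4. Ndufs5, an accessory subunit on the intermembrane side, read 7.50, 8.14, 7.55 and 7.87 on the IDE-KD arrays, against 7.95, 7.996, 7.88 and 7.98 on the control arrays. Its controls were close together and above 3 of the 4 IDE-KD arrays, and its difference was -0.19 (SE 0.15), or -0.32 without IDE-KD 2 and -0.10 without IDE-KD 1.

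Ndufa3, a small subunit of the membrane arm, stood at the other end with 8.98, 9.81, 9.36 and 9.67 on the IDE-KD arrays, against 9.26, 9.69, 9.08 and 9.19 on the control arrays. Its difference was 0.15 (SE 0.19), and 0.03 without IDE-KD 2. Ndufb8, also of the membrane arm, differed by 0.10 (SE 0.13), and by 0.02 without IDE-KD 2. Neither difference exceeded the spread between arrays.

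The widest gap between IDE-KD 2 and IDE-KD 1 of any member was in Ndufc1, a small membrane-arm subunit named here after its values were seen. Ndufc1 read 7.92, 9.55, 8.58 and 9.13 on the IDE-KD arrays, against 8.98, 8.97, 8.71 and 8.99 on the control arrays. Array IDE-KD 2 thus stood 1.63 above IDE-KD 1, while the controls were close together. The difference between the group means was nonetheless -0.11 (SE 0.27). Next came Ndufs7 with a gap of 1.42 and Ndufb4b with 1.38. Ndufb4b carries the name of a copy of Ndufb4, and the sources used here do not say whether the probes tell the pair apart.

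The 8 assembly factors Ndufaf1 to Ndufaf8 help to build complex I but are not part of the finished enzyme. They had 4 higher and 4 lower differences with a median of -0.01. Their mean deviation was -0.25, 0.21, -0.15 and 0.17 on IDE-KD arrays 1, 2, 3 and 4, against -0.09, 0.17, -0.03 and -0.03 on control arrays 1, 2, 3 and 4. IDE-KD 2 was above IDE-KD 1 in 6 of 8, the exceptions being Ndufaf2 and Ndufaf6. Ndufaf3, which acts on the quinone-binding module, read 5.94, 6.68, 6.25 and 6.57 on the IDE-KD arrays, against 5.95, 6.67, 6.04 and 6.31 on the control arrays and had the highest difference, 0.12 (SE 0.19), or 0.01 without IDE-KD 2 and 0.26 without control 2. Ndufaf2, a late assembly factor related to the subunit Ndufa12, read 6.24, 6.19, 5.94 and 6.18 on the IDE-KD arrays, against 5.998, 6.40, 6.25 and 6.33 on the control arrays. Its difference was -0.11 (SE 0.13), the lowest of the factors, and -0.19 without control 1.

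**Figure D4:**
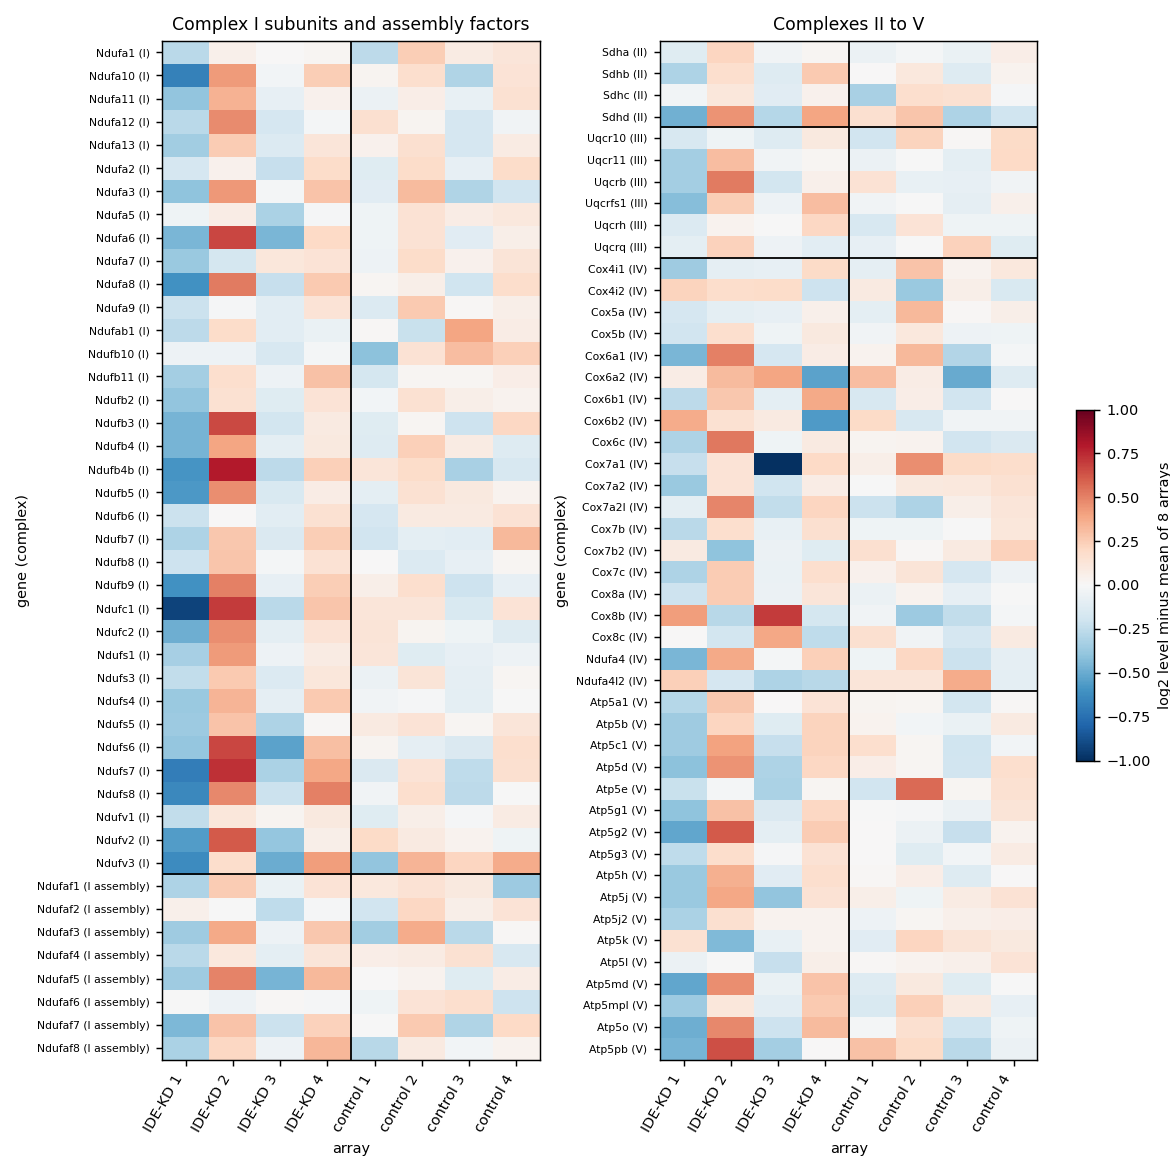
Each row is one of the 91 members, grouped by complex, and each column an array, with IDE-KD arrays left of control arrays; colour is the log2 level minus that member's mean over the 8 arrays. The IDE-KD 1 column is the lowest of the 8 for 65 members and the IDE-KD 2 column the highest for 52, while the muscle, testis and hypoxia isoforms of complex IV do not share that pattern.

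Complex II, succinate dehydrogenase, is also an enzyme of the citric acid cycle and is encoded wholly in the nucleus. Its 4 subunits had 3 higher and 1 lower differences, from -0.0046 to 0.04, with a median of 0.02. Sdhd, one of the anchors that hold the enzyme in the membrane and bind ubiquinone, read 7.68, 8.61, 7.87 and 8.56 on IDE-KD arrays 1, 2, 3 and 4, against 8.32, 8.43, 7.85 and 7.96 on control arrays 1, 2, 3 and 4. IDE-KD 2 and 4 lay above all controls and IDE-KD 1 below all of them, and controls 1 and 2 lay well above controls 3 and 4. The difference was 0.04 (SE 0.22), or -0.11 without IDE-KD 2 and 0.20 without IDE-KD 1.

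Sdhb, the iron-sulfur subunit, was again low on IDE-KD 1 and 3, with 8.66, 9.14, 8.84 and 9.24 on the IDE-KD arrays, against 8.98, 9.08, 8.84 and 9.01 on the control arrays and a difference of -0.0046 (SE 0.14). Sdha, the flavoprotein that oxidises succinate, read 7.73, 8.06, 7.81 and 7.86 on the IDE-KD arrays, against 7.79, 7.83, 7.78 and 7.91 on the control arrays. Its difference of 0.04 (SE 0.12) had a 95% confidence interval from -0.21 to 0.29. Sdhc, the other anchor, had its lowest value on control 1, with 8.16, 8.30, 8.08 and 8.24 on the IDE-KD arrays, against 7.87, 8.36, 8.34 and 8.18 on the control arrays and a difference of 0.0063 (SE 0.13), or -0.10 without control 1.

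Complex III, the cytochrome bc1 complex, was represented by 6 subunits, 3 higher and 3 lower, with a median difference of 0.0056. The mean deviation was -0.25, 0.22, -0.08 and 0.10 on IDE-KD arrays 1, 2, 3 and 4, against -0.06, 0.05, -0.01 and 0.04 on control arrays 1, 2, 3 and 4. IDE-KD 2 was above IDE-KD 1 in 6 of 6. Uqcrb, a small subunit that contacts the ubiquinone site, read 9.67, 10.53, 9.83 and 10.06 on IDE-KD arrays 1, 2, 3 and 4, against 10.16, 9.94, 9.93 and 9.98 on control arrays 1, 2, 3 and 4. IDE-KD 2 was alone above the controls, and the difference was 0.02 (SE 0.17), or -0.15 without it and 0.14 without IDE-KD 1.

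Uqcrfs1, the Rieske iron-sulfur protein that hands electrons to cytochrome c1, read 7.83, 8.51, 8.21 and 8.57 on the IDE-KD arrays, against 8.23, 8.26, 8.17 and 8.32 on the control arrays, with 2 IDE-KD arrays above and 1 below every control. Its difference was 0.04 (SE 0.16). Uqcrh, the hinge protein beside cytochrome c1, read 10.05, 10.23, 10.18 and 10.40 on the IDE-KD arrays, against 10.03, 10.33, 10.15 and 10.14 on the control arrays and differed by 0.05 (SE 0.12). Uqcrq, which lies by cytochrome b, read 9.40, 9.73, 9.45 and 9.39 on the IDE-KD arrays, against 9.42, 9.49, 9.73 and 9.38 on the control arrays, with IDE-KD 2 apart from the other IDE-KD arrays, and differed by -0.01 (SE 0.13). The small subunits Uqcr10 and Uqcr11 differed by -0.12 (SE 0.13) and -0.02 (SE 0.15). Uqcr10 differed by -0.20 without control 1 and by -0.06 without control 2.

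Complex IV, cytochrome c oxidase, divided into its common subunits and the isoforms known from other tissues or conditions. All 20 members together had 11 higher and 9 lower differences with a median of 0.02. For 12 genes, the common subunits together with Cox7a2l, the mean deviation was -0.29, 0.25, -0.10 and 0.15 on IDE-KD arrays 1, 2, 3 and 4, against -0.05, 0.11, -0.08 and 0.02 on control arrays 1, 2, 3 and 4. IDE-KD 1 held the lowest value of 11 of these 12 and IDE-KD 2 was above it in 12 of 12. For the 8 isoforms the deviation was 0.15, -0.03, 0.05 and -0.24 on IDE-KD arrays 1, 2, 3 and 4, and IDE-KD 2 was above IDE-KD 1 in 2 of 8. These 8 probe sets all had means below 6, and among all tested probe sets with a mean of 6 or below IDE-KD 2 was above IDE-KD 1 in 39.5%.

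Cox7a2, the widely expressed form of subunit VIIa, read 8.04, 8.54, 8.21 and 8.48 on IDE-KD arrays 1, 2, 3 and 4, against 8.41, 8.51, 8.51 and 8.56 on control arrays 1, 2, 3 and 4. IDE-KD 1 and 3 lay below every control and IDE-KD 2 and 4 among them, while the controls themselves were close together. Cox7a2 averaged 8.32 ± 0.24 in IDE-KD and 8.50 ± 0.06 in control cells (SD, n = 4 each). The difference of -0.18 (SE 0.13, 95% confidence interval -0.47 to 0.11) was -0.08 without IDE-KD 1 and -0.25 without IDE-KD 2.

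Cox7a1, the heart and muscle form of the same subunit, had the lowest difference of all members. It read 5.53, 5.90, 4.77 and 5.97 on IDE-KD arrays 1, 2, 3 and 4, against 5.83, 6.23, 5.95 and 5.94 on control arrays 1, 2, 3 and 4. A single array, IDE-KD 3, lay far below the rest, and IDE-KD 2 and 4 lay among the controls. The difference was -0.44 (SE 0.22, 95% confidence interval -0.93 to 0.04) and it was -0.19 without IDE-KD 3 and -0.58 without IDE-KD 4.

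**Figure D5:**
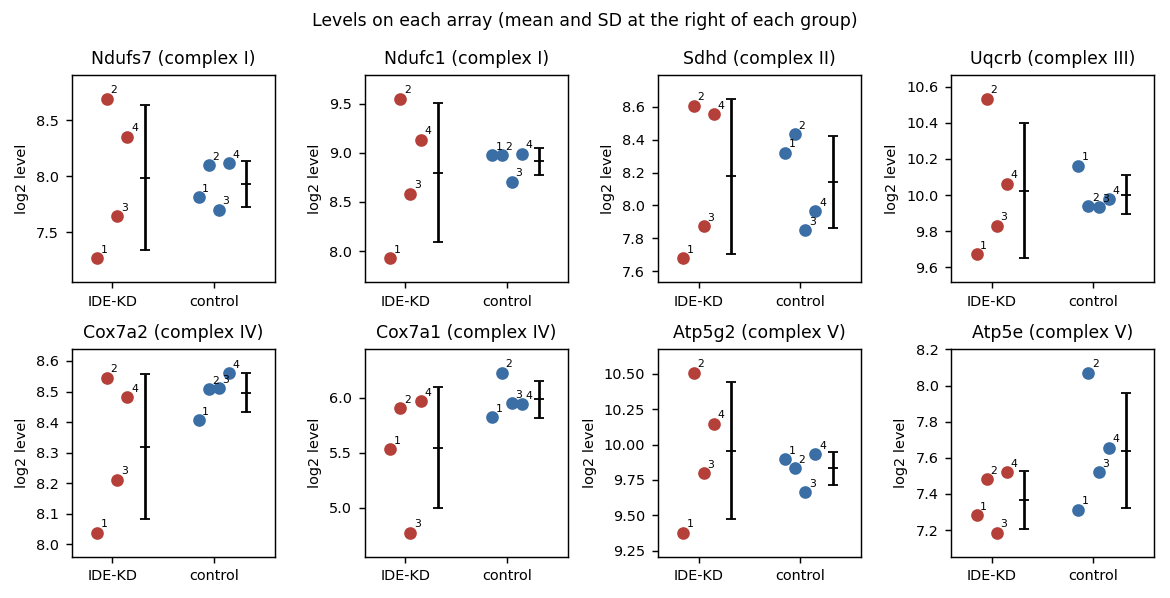
Log2 levels of 8 members (vertical axes, a range of its own in each panel), with IDE-KD arrays in red left of control arrays in blue, each point numbered by replicate, and the bar giving mean and SD of the 4 arrays. In Ndufs7 and Ndufc1 the IDE-KD arrays span 1.42 and 1.63 around the control values, and in Cox7a1 the array IDE-KD 3 at 4.77 is apart from the other 7.

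Cox8b, the muscle form of subunit VIII, had the highest difference, at a level below the median intron control row. It read 3.47, 2.78, 3.75 and 2.88 on the IDE-KD arrays, against 3.02, 2.69, 2.81 and 3.03 on the control arrays, so that IDE-KD 1 and 3 were high and IDE-KD 2 and 4 lay among the controls. Its difference was 0.33 (SE 0.20, 95% confidence interval -0.11 to 0.76), or 0.15 without IDE-KD 3 and 0.48 without IDE-KD 2. Cox8a, its common counterpart, read 9.87, 10.33, 10.02 and 10.20 on the IDE-KD arrays, against 10.02, 10.11, 9.999 and 10.07 on the control arrays and differed by 0.05 (SE 0.13). Cox8c, known from testis, differed by -0.03 (SE 0.15).

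Cox4i1, the common form of subunit IV, at which ATP regulates the enzyme, read 9.29, 9.56, 9.56 and 9.84 on the IDE-KD arrays, against 9.55, 9.93, 9.68 and 9.75 on the control arrays, with a difference of -0.17 (SE 0.14), or -0.08 without IDE-KD 1 and -0.26 without IDE-KD 4. Cox4i2, the form known from lung and induced by low oxygen, read 4.53, 4.47, 4.48 and 4.10 on the IDE-KD arrays, against 4.39, 3.93, 4.36 and 4.15 on the control arrays. On IDE-KD 4 it was lower than on the other IDE-KD arrays, and its difference was 0.19 (SE 0.15), or 0.10 without control 2 and 0.29 without IDE-KD 4. The mean of Cox4i2, 4.30, was close to the median intron control row of 4.16, and IDE-KD 4, control 2 and control 4 lay below that row. Cox6a1, the common form of subunit VIa, read 10.43, 11.38, 10.71 and 10.95 on the IDE-KD arrays, against 10.92, 11.21, 10.59 and 10.86 on the control arrays. Array IDE-KD 1 was below and IDE-KD 2 above every control, and the difference was -0.03 (SE 0.19). Its muscle counterpart Cox6a2 differed by 0.13 (SE 0.21), and by -0.02 without control 3.

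Ndufa4, first described as a complex I subunit, read 9.85, 10.69, 10.29 and 10.55 on the IDE-KD arrays, against 10.26, 10.51, 10.09 and 10.22 on the control arrays, lowest on IDE-KD 1 and highest on IDE-KD 2, and differed by 0.07 (SE 0.17). Its relative Ndufa4l2, which is induced by low oxygen, lay below the median intron control row and read 3.75, 3.34, 3.20 and 3.23 on the IDE-KD arrays, against 3.63, 3.63, 3.89 and 3.41 on the control arrays. The difference of Ndufa4l2 was -0.26 (SE 0.15). Cox7b2 and Cox6b2, both known from testis, were below that row as well and differed by -0.25 (SE 0.13) and 0.02 (SE 0.18). Their common counterparts Cox7b and Cox6b1 differed by -0.0096 (SE 0.13) and 0.14 (SE 0.15).

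Complex V, the ATP synthase, has a catalytic F1 head and a membrane part with a rotating ring of c subunits, joined by stalks. Its 17 members had 7 higher and 10 lower differences with a median of -0.02. The mean deviation was -0.33, 0.27, -0.16 and 0.16 on IDE-KD arrays 1, 2, 3 and 4, against 0.0016, 0.08, -0.07 and 0.05 on control arrays 1, 2, 3 and 4. IDE-KD 1 held the lowest value of 13 members and IDE-KD 2 the highest of 12, and IDE-KD 2 was above IDE-KD 1 in 16 of 17.

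Atp5e, the epsilon subunit of the central stalk, had the lowest difference of the complex. It read 7.28, 7.48, 7.18 and 7.52 on IDE-KD arrays 1, 2, 3 and 4, against 7.31, 8.07, 7.52 and 7.66 on control arrays 1, 2, 3 and 4. Control 2 was well above the other controls and control 1 lay among the IDE-KD values, so the groups overlapped. Atp5e averaged 7.37 ± 0.16 in IDE-KD and 7.64 ± 0.32 in control cells (SD, n = 4 each). The difference of -0.27 (SE 0.16, 95% confidence interval -0.62 to 0.08) was -0.13 without control 2 and -0.38 without control 1. Unlike most members, Atp5e had the larger SD in control cells.

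Among the IDE-KD arrays, the other F1 subunits, like Atp5e, were low on IDE-KD 1 and 3 and high on IDE-KD 2 and 4. Atp5b, the catalytic beta subunit, read 10.49, 11.06, 10.73 and 11.07 on the IDE-KD arrays, against 10.88, 10.82, 10.78 and 10.94 on the control arrays and differed by -0.02 (SE 0.14). Atp5a1, the alpha subunit that alternates with beta in the head, read 10.70, 11.25, 10.99 and 11.12 on the IDE-KD arrays, against 11.01, 11.005, 10.80 and 10.99 on the control arrays and differed by 0.06 (SE 0.14). Control 3 was lower than the other controls in both. Atp5c1, the gamma shaft that turns inside the head, read 9.33, 10.09, 9.46 and 9.91 on the IDE-KD arrays, against 9.85, 9.70, 9.48 and 9.65 on the control arrays. Atp5d, the delta subunit at its foot, read 9.18, 10.04, 9.29 and 9.80 on the IDE-KD arrays, against 9.66, 9.61, 9.40 and 9.76 on the control arrays. Their differences were 0.02 (SE 0.17) and -0.03 (SE 0.18), and those of all 4 were positive without IDE-KD 1 and negative without IDE-KD 2.

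The c ring is built from a protein that Atp5g1, Atp5g2 and Atp5g3 all encode, each with its own mitochondrial import sequence. Atp5g2 read 9.38, 10.51, 9.80 and 10.15 on the IDE-KD arrays, against 9.89, 9.83, 9.67 and 9.93 on the control arrays, the widest of these genes, with a gap of 1.13 between IDE-KD 2 and IDE-KD 1. Its difference of 0.13 (SE 0.20) was -0.06 without IDE-KD 2 and 0.32 without IDE-KD 1. Atp5g1 and Atp5g3 had gaps of 0.69 and 0.43. Their differences were -0.02 (SE 0.15) and 0.03 (SE 0.13).

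Atp5k, the e subunit found where ATP synthases pair up, was the exception. It read 6.97, 6.37, 6.74 and 6.85 on the IDE-KD arrays, against 6.70, 7.03, 6.94 and 6.91 on the control arrays, highest on IDE-KD 1 within its group and lowest on IDE-KD 2. Its difference was -0.16 (SE 0.14), or -0.04 without IDE-KD 2 and -0.24 without IDE-KD 1. Atp5md, a small membrane subunit of the same region, read 9.42, 10.40, 9.86 and 10.22 on the IDE-KD arrays, against 9.80, 10.03, 9.82 and 9.93 on the control arrays, lowest on IDE-KD 1 and highest on IDE-KD 2, and differed by 0.08 (SE 0.19).

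The members' promoters were read for letters tied to factors known to act on nuclear genes of the respiratory chain. RefSeq promoter windows (GRCm38.p6, 250 bases before to 50 after an annotated start) were given for 76 of the 91 genes, in 81 windows. GCGCATGC, the core of the NRF1 motif, was found on either strand in 11 of 76 members (14.5%) and in 3.94% of 17492 protein-coding genes with a window. CCGGAAG, bound by ETS factors such as GABP, was found in 19 members (25%) and in 12.9% of coding genes. AAGATGGC, bound by YY1, was found in 11 members (14.5%) and in 3.57% of coding genes. In 34 members at least 1 of these was present, and in 0 windows did different motifs overlap. The shares over all coding genes also cover dim genes, whereas 82 of 91 members had a mean over 6. Outside the set, among probe sets of coding genes with a window and a mean over 6, 426 had the NRF1 core and 5873 did not. The counts with and without were 1399 and 4900 for the ETS letters, and 373 and 5926 for the YY1 letters. All 3 shares among these brighter probe sets were thus above those over all coding genes. For the ETS letters, the share was close to that of the members. These matches describe letters and are not evidence of binding.

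Upstream windows are shown for Atp5e and Cox7a2, the lowest common subunits of complexes V and IV by difference, and for Cox6a1, which holds both NRF1 and ETS letters. Each gives the 250 bases before the start, written 5′ to 3′ on the gene's strand, with matched letters in capitals. The capitals of Atp5e, and those nearest the start in Cox6a1, are the ETS letters on the opposite strand. The longer run in Cox6a1 is the NRF1 core read on both strands. Cox7a2 holds none of the letters searched.
Atp5e, chr2:174464102-174464351, minus strand: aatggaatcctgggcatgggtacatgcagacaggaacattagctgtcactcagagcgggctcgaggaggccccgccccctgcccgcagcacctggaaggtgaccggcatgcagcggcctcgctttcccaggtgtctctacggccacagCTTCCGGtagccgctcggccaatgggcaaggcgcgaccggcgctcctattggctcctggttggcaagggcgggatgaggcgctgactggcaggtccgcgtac
Cox7a2, chr9:79759854-79760103, minus strand: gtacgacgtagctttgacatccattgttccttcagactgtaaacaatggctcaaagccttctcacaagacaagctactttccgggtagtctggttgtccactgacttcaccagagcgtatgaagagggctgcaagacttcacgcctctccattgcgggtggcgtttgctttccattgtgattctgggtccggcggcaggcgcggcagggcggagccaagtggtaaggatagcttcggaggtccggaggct
Cox6a1, chr5:115348959-115349208, minus strand: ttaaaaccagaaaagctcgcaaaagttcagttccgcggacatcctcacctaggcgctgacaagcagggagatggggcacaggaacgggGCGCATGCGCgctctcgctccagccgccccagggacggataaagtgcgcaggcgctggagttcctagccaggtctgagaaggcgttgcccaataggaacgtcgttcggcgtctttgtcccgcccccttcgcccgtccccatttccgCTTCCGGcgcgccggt

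The YY1 letters mostly lay just past the start. Of 11 matches, 9 lay after the start on the gene's own strand, with their first base 11 to 39 bases past it, counting the start as 1. The letters AAGATGGC contain ATG, and whether these matches lie at the genes' translation starts was not checked. The NRF1 letters lay mostly before the start. Their core can be read on both strands at one place, and with overlapping matches merged they made 12 sites, 2 of them after the start. Stretches of 30 bases are shown for the members with the widest gaps between IDE-KD 2 and IDE-KD 1, Ndufc1 and Ndufs7, and for Ndufs6, Ndufs4 and Ndufa3, with the YY1 letters in capitals.
Ndufc1, chr3:51408915-51408944, minus strand: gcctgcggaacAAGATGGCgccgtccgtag
Ndufs7, chr10:80249462-80249491, plus strand: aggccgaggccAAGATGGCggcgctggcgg
Ndufs6, chr13:73328433-73328462, minus strand: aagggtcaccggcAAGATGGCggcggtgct
Ndufs4, chr13:114388045-114388074, minus strand: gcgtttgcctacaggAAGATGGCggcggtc
Ndufa3, chr7:3617384-3617413, plus strand: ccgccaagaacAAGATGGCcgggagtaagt

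NRF1 letters are shown in the same way for Atp5g2, Ndufa6 and Ndufa8, whose gaps between IDE-KD 2 and IDE-KD 1 were 1.13, 1.13 and 1.12, and for Atp5k, which ran the other way.
Atp5g2, chr15:102671071-102671100, minus strand: tggctccggccGCGCATGCgcagagccttc
Ndufa6, chr15:82354356-82354385, minus strand: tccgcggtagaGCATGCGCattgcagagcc
Ndufa8, chr2:36049328-36049357, minus strand: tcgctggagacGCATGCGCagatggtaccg
Atp5k, chr5:108434431-108434460, minus strand: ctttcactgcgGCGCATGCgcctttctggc

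Members with and without the letters shared the spread among the IDE-KD arrays. The median of IDE-KD 2 minus IDE-KD 1 was 0.75 in the 11 members with the NRF1 core and 0.57 in the 65 without. For the YY1 letters it was 0.76 in 11 members with and 0.57 in 65 without them. For the ETS letters it was 0.53 in 19 members with and 0.65 in 57 without them. Among genes outside the set with a mean over 6, it was 0.11 with and 0.06 without the NRF1 core, 0.08 with and 0.07 without the YY1 letters, and 0.14 with and 0.05 without the ETS letters. Any part of these factors in the spread among the IDE-KD arrays was not tested.

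Genes that build or serve the chain were counted in the same way. Of 42 further assembly factors of complexes I to V, 39 were measured and 0 called; 18 were higher and 21 lower, around a median of -0.01. IDE-KD 2 was above IDE-KD 1 in 30 of these 39 (76.9%). The differences ran from -0.21 (SE 0.12) for Sco1, which delivers copper to complex IV, to 0.19 (SE 0.14) for Nubpl, which delivers iron-sulfur clusters to complex I. The difference of Nubpl was 0.09 without control 3. Of 13 further symbols listed for genes that work with the chain, not all of them for separate genes, 10 matched a probe set. Of these, 6 were higher, 4 lower and 0 called. Coq9, needed to make ubiquinone, stood lowest at -0.11 (SE 0.14), or -0.06 without IDE-KD 4 and -0.21 without IDE-KD 1. Atpif1, the inhibitor of ATP synthase that acts when the proton gradient fails, stood highest at 0.21 (SE 0.19). Atpif1 read 8.69, 9.59, 8.88 and 9.35 on the IDE-KD arrays, against 9.05, 8.98, 8.64 and 8.98 on the control arrays, and its difference was 0.06 without IDE-KD 2 and 0.36 without IDE-KD 1. IDE-KD 2 was above IDE-KD 1 in 9 of these 10 genes.

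Regulators of mitochondrial biogenesis had 17 of 18 genes measured and 0 called; 7 were higher and 10 lower, around a median of -0.03. Tfam, which packages and transcribes mitochondrial DNA, stood lowest at -0.27 (SE 0.16), or -0.13 without IDE-KD 3. Tfb1m, a methyltransferase of mitochondrial ribosomal RNA, stood highest at 0.12 (SE 0.14), or 0.04 without IDE-KD 4 and 0.22 without IDE-KD 1. In the biogenesis list IDE-KD 2 was above IDE-KD 1 in 13 of 17 genes.

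Markers of other cell types that a culture could hold were low. Of 20 such markers, 19 were measured, 8 of them below the median intron control row. Their mean deviation was 0.17, 0.0036, 0.20 and -0.07 on IDE-KD arrays 1, 2, 3 and 4, against 0.05, -0.27, -0.03 and -0.06 on control arrays 1, 2, 3 and 4, so they were high on IDE-KD 1 and 3, where the members were low. The fitted difference was positive for 18 and negative for 1, Slc2a2 at -0.07 (SE 0.17), with a median of 0.14 and 0 called. At an unadjusted p under 0.05 there was 1, the fibroblast marker Lum at 0.30 (SE 0.13), named after its value was seen. The mean level of Lum, 2.55, lay below the median intron control row. All tested probe sets with a mean of 6 or below had 8012 of 13585 positive differences, with a median of 0.04. These dim probe sets deviated by 0.05, -0.03, 0.08 and -0.02 on IDE-KD arrays 1, 2, 3 and 4. They too were higher on IDE-KD 1 and 3, so that run was not particular to the markers. Among the hormones, Ins2 averaged 4.87 ± 0.29 in IDE-KD and 4.61 ± 0.46 in control cells (SD, n = 4 each) and Sst averaged 5.64 ± 0.15 in IDE-KD and 5.49 ± 0.33 in control cells (SD, n = 4 each). In bulk RNA, fewer cells of a type and less RNA per cell cannot be told apart, and any part of these markers in the members' values was not tested.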

How the data were processed

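Expression was measured on 8 Clariom S arrays, 4 of IDE-KD and 4 of control alphaTC1.9 cells. The authors deposited log2 values, 1 column for each array. RMA, oligo and limma appear in the submitters' processing notes with neither version nor role. The probe sets' genome build was not given in the sources used here. RMA in its usual form equalises the arrays' distributions, so a global change would be removed. Of 29129 rows, 22142 transcript probe sets were tested, 19527 of them with 1 gene symbol, 2615 with none and 0 with several; 1324 exon and 5222 intron control rows served as array measures. The values were used as deposited with limma 3.58.1 in R 4.3.3 (lmFit and eBayes, no covariate), with Benjamini-Hochberg adjustment over all tested rows and a threshold of 0.05. Precision is limited by the number of arrays: a member's 95% confidence interval had a median half-width of 0.33 on the log2 scale.

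A few genes that the symbol rule would take are not reported here. The members and gene lists were chosen with earlier results of these data known, and so were the naming rule and the alternatives. The text names Ide, Atp5e and Cox7a2, the core, complex II, complex III, F1 and c-ring genes, tissue isoforms with their common counterparts, the 2 highest and 2 lowest differences of each complex, rows below the median intron control row, and the extremes of other lists. Ndufc1, Ndufb4b, Ndufb10, Ndufa12, Ndufaf6, Cox7a2l and the genes whose sequences are shown were named after their values were seen. Alternatives were a replicate block, array weights, trend and robust eBayes, a filter on dim rows, other scalings, treat against a fold of 1.2 and leaving out each array; removing IDE-KD 1 and 2 together and cyclic loess were added after seeing the data. Promoter sequences are RefSeq's (GRCm38.p6). For 61 of 81 member windows the start matched the one given in the gene table. For the others it did not, and which start they use was not checked.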

Additional observations from a re-analysis of the deposited data

Results flagged for a closer look

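In 6 of 136 groups of 4 arrays tested, 1 array stood apart by Dixon's criterion, where its gap to the nearest other value, as a share of the group's whole range, is over the 95% critical value. Chance gives about 1 in 20 such groups. Of the members, Uqcrq read 9.73 on IDE-KD 2 against 9.39 to 9.45 on the other IDE-KD arrays (ratio 0.839). Cox4i2, whose levels were close to background, read 4.10 on IDE-KD 4 against 4.47 to 4.53 on the other IDE-KD arrays (ratio 0.876). Atp5a1 read 10.80 on control 3 against 10.99 to 11.01 on the other controls (ratio 0.9). Among genes outside the set, the ATP synthase inhibitor Atpif1 read 8.64 on control 3 against 8.98 to 9.05 (ratio 0.833) and the alpha cell transcription factor gene Irx1 read 6.36 on control 3 against 6.48 to 6.50 (ratio 0.84). Sst read 4.999 on control 4 against 5.64 to 5.66 on the other controls (ratio 0.967). Arrays IDE-KD 1 and IDE-KD 2, which held most of the members' lowest and highest values, were marked by this criterion for Uqcrq alone. Where 1 array is low and another high, each widens the range, so the criterion can hardly mark either. The mean over all members in IDE-KD had a ratio of 0.302. The criterion thus cannot decide whether these arrays stood apart.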

How the results depend on the processing

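Under 17 alternatives limma called 0 members and 0 of all tested rows at an adjusted p under 0.05. The count of members at an unadjusted p under 0.05, 0 as reported, was 1 with trend and robust eBayes (Cox7a1), 1 with the replicate block (Cox7a1), 1 after quantile normalization again and 1 after cyclic loess (Cox7b2 in both), 2 without the pair IDE-KD 1 and 2 (Cox7a1 and Ndufa4l2), and between 0 and 4 with each array left out. The 4 were Ndufs5, Ndufv2, Cox7a1 and Cox8b, without IDE-KD 2. The median differences depended on the arrays used: with 1 array left out, that of complex I ran between -0.15 and 0.11 and that of all members between -0.11 and 0.10. Over all alternatives, 29 of 112 values of the complexes' medians changed sign. Among 47 named members, 102 of 748 values changed sign and 17 members kept their sign throughout. Of these alternatives, the replicate block, the trend and robust setting and the filter on dim rows cannot move a gene's difference by construction. The filter can change a median only by dropping rows. The percent of members highest on IDE-KD 2 and lowest on IDE-KD 1 was 44.0 after quantile normalization again and 57.1 without IDE-KD 4, where the lowest and highest of 7 arrays were taken. Same-numbered IDE-KD and control arrays deviated together with correlations of 0.10, 0.13, 0.09 and 0.10. IDE-KD 1, 3 and 4 correlated best with a control of another number. With so few arrays these values cannot decide whether arrays of the same number were paired. In this balanced design the replicate block can change p-values and leaves the median difference of the members at -0.0096. Cox8b, Cox7b2, Cox6b2 and Ndufa4l2 had mean levels below the median intron control row, so their signal was not separated from background. Cox4i2, with a mean of 4.30, lay just above that row.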
